A study of Mus musculus with 8 samples.

Results

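The 9 genes described here make, break down or regulate polyamines. They are Odc1, Srm, Sms, Amd1, Sat1, Smox, Azin1, Oaz1 and Oaz2, chosen by symbol, out of 45777 genes in the deposited count table. All 9 were measured in every library and passed the filter on low counts. RNA-seq counts came from primary CD8+ T cells of C57BL/6 mice, taken from lymph node and spleen and stimulated through the T cell receptor with antibodies against CD3 and CD28. The cells were kept for 48 hours with EnPGC-1, with Ctrl PIP (the compound named as a control), with SGC-CBP30 (which blocks the bromodomains of CBP and p300, acetyltransferases that act on histones) or with the vehicle DMSO. Every group carried the same stimulation, and no unstimulated group was analysed here. Each group had 2 libraries. The labels class the compounds as PIPs and give no doses, ages or numbers of animals, and no comparison between compounds is at a matched dose.

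Polyamines are small positively charged molecules that bind RNA and DNA, and dividing cells need them. Ornithine decarboxylase turns ornithine into putrescine, and spermidine synthase and spermine synthase then add aminopropyl groups taken from decarboxylated S-adenosylmethionine. Resting T cells make few polyamines, and activation induces the pathway downstream of the transcription factor MYC. Spermidine also supplies the hypusine residue of the translation factor eIF5A.

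Srm, the spermidine synthase gene, and Odc1, the ornithine decarboxylase gene, varied most of the 9 genes over the 8 libraries, by the standard deviation of log2 level. Both were lower in the EnPGC-1 libraries than in the Ctrl PIP and DMSO libraries, and Srm was also lower in the SGC-CBP30 libraries than in both of those groups. Sms and Amd1, also genes of synthesis, had lower means with EnPGC-1 and SGC-CBP30 than with Ctrl PIP and DMSO, by smaller steps. Sat1, which starts polyamine breakdown, was highest with EnPGC-1 in the group means. No polyamine gene passed edgeR's quasi-likelihood test with Benjamini-Hochberg adjustment in the fit of all 8 libraries. In that fit 0 of 16750 genes (0.0%) passed in any of the 6 comparisons. A fit on the 4 libraries of SGC-CBP30 and Ctrl PIP alone called Srm, Sms, Amd1 and Odc1 lower with SGC-CBP30, as it did 8.51% of all genes, and Odc1 no longer passed once transcript length and GC content were offset.

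Total counts ranged from 38890043 to 55491261 per library, and between 18348 and 19057 genes were detected. The 9 genes together held 0.091% to 0.176% of the counts. Levels are CPM, the counts of a gene relative to the library total, scaled by edgeR's TMM library sizes. The 6 markers listed for CD8+ T cells (Cd8a, Cd8b1, Cd3d, Cd3e, Cd3g and Cd2) were detected in every library, at a summed 2845 to 4218 CPM. Of these only Cd8a and Cd8b1 are CD8 genes, and the others are not particular to CD8+ cells. The second libraries of EnPGC-1 and DMSO stood apart, with 9042 and 10070 CPM of the ribosomal RNA gene Rn18s-rs5, while the other 6 libraries had 1119 to 2311 CPM. The first and second libraries of EnPGC-1 and of DMSO also had opposite trends of level with transcript length, with Spearman correlations over 9290 genes of 0.49 and -0.52 with EnPGC-1, and 0.56 and -0.61 with DMSO. The trends were 0.54 and 0.48 in the SGC-CBP30 libraries, against -0.52 and -0.20 in those of Ctrl PIP, so that these 2 groups differed in it as groups. Estimates with an offset for transcript length and GC content are given for some genes only. They cover EnPGC-1 and SGC-CBP30, each against DMSO and against Ctrl PIP. The part of Rn18s-rs5 in the polyamine values was not tested. The biological coefficient of variation was 0.562 over EnPGC-1 and DMSO and 0.159 over SGC-CBP30 and Ctrl PIP. Nothing in the labels ties the 2 libraries of a group to different mice or cultures. The p-values therefore reflect the spread between these libraries alone, and that spread may be technical.

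Odc1 lies at chr12:17544808-17551502 on GRCm38.p6, the assembly also called mm10, and encodes the first and rate-limiting enzyme of the pathway. Sms lies at chrX:157443851-157492287 and Sat1 at chrX:155213126-155216449. The windows around their start sites, from 250 bases before to 50 bases after, are shown because Odc1 and Sms were lower and Sat1 higher in the EnPGC-1 libraries than in the Ctrl PIP libraries. They are RefSeq sequences on GRCm38.p6, given 5′ to 3′ on the strand of the gene. Capitals mark CACGTG, the E-box that MYC is known to bind, and the related CACGCG on either strand, which reads CGCGTG on the other. The windows are chr12:17544623-17544922 on the plus strand for Odc1, chrX:157492238-157492537 on the minus strand for the first of the 2 Sms starts listed, and chrX:155216400-155216699 on the minus strand for Sat1.
Odc1: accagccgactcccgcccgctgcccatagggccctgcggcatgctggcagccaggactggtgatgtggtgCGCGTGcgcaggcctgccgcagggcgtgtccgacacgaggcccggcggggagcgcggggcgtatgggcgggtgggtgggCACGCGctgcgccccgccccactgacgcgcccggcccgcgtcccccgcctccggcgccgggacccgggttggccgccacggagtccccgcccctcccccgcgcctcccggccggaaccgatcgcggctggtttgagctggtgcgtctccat
Sms: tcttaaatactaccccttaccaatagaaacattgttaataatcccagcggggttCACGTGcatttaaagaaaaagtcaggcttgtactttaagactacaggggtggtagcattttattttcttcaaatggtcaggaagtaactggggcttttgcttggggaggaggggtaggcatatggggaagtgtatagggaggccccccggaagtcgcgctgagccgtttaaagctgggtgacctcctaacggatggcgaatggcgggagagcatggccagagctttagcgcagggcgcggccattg
Sat1: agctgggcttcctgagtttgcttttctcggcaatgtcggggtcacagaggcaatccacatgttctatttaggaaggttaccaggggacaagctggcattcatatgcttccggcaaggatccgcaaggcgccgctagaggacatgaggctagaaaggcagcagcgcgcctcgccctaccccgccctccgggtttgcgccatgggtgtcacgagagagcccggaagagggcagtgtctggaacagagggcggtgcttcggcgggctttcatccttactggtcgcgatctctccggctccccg

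The Sms window held CACGTG once, beginning 196 bases before the start. The Odc1 window held no CACGTG and had the related CACGCG or its reverse complement at 180 and 101 bases before the start. The start used for the Odc1 window lies within the gene span given above, not at its first base. The Sat1 window held neither. Windows were matched for 7 of the 9 genes, all but Srm and Azin1. Among the others, CACGCG occurred once before the start of Oaz1 (212 bases) and once before the second start of Sms (140 bases). Amd1, Smox and Oaz2 had neither motif. Like Odc1 and Sms, Amd1 was lower in the EnPGC-1 libraries than in the Ctrl PIP libraries. Over all 32851 windows of the same length in the table, 7.15% held CACGTG and 9.27% held CACGCG on either strand. A match describes these letters only, and the E-boxes of Odc1 known to bind MYC lie in its first intron, outside this window.

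Odc1 stood at 145 and 207 CPM in the 2 EnPGC-1 libraries, at 397 and 359.5 CPM with Ctrl PIP, at 212 and 267 CPM with SGC-CBP30 and at 232 and 552 CPM with DMSO. Both EnPGC-1 libraries were below all 6 others. The 2 DMSO libraries differed 2.38-fold, and the lower of them lay between the SGC-CBP30 libraries. The means were 176 ± 44.1 CPM with EnPGC-1, 378 ± 26.4 with Ctrl PIP, 239.7 ± 38.8 with SGC-CBP30 and 392 ± 226 with DMSO (SD, n = 2 each).

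Amd1 encodes S-adenosylmethionine decarboxylase, which makes the aminopropyl donor, and lies at chr10:40287458-40302188. It had 63.0 and 54.0 CPM in the EnPGC-1 libraries, 84.0 and 90.2 with Ctrl PIP, 52.2 and 59.1 with SGC-CBP30, and 57.7 and 103 with DMSO. The Ctrl PIP libraries were above all 4 EnPGC-1 and SGC-CBP30 libraries, and the DMSO libraries lay on both sides of the Ctrl PIP pair. A near-identical gene, Amd2, had 15.0 to 21.9 counts for every 100 of Amd1, and 85.7% of its 50-base stretches also occur in Amd1. The counts of the pair may therefore be shared, to an extent that these values do not measure.

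Srm encodes spermidine synthase and lies at chr4:148591513-148594619. It had 43.8 and 35.5 CPM in the EnPGC-1 libraries, 104 and 114 with Ctrl PIP, 37.5 and 45.6 with SGC-CBP30, and 54.6 and 121 with DMSO. The 4 libraries of EnPGC-1 and SGC-CBP30 lay below the 4 libraries of Ctrl PIP and DMSO without overlap, and the lower DMSO library was the nearest to them. The means were 39.6 ± 5.87 CPM with EnPGC-1, 109 ± 7.07 with Ctrl PIP, 41.5 ± 5.73 with SGC-CBP30 and 87.6 ± 46.6 with DMSO (SD, n = 2 each).

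Sms encodes spermine synthase. It had 82.6 and 110.0 CPM in the EnPGC-1 libraries, 153 and 149 with Ctrl PIP, 93.2 and 102 with SGC-CBP30, and 99.6 and 199.6 with DMSO. As for Amd1, the Ctrl PIP libraries were above all EnPGC-1 and SGC-CBP30 libraries, and the DMSO libraries lay on both sides of the Ctrl PIP pair. The summed level of Odc1, Srm, Sms and Amd1 was 334 and 407 CPM in the EnPGC-1 libraries, 737 and 712 with Ctrl PIP, 395 and 474 with SGC-CBP30, and 444 and 975 with DMSO.

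**Figure D1:**
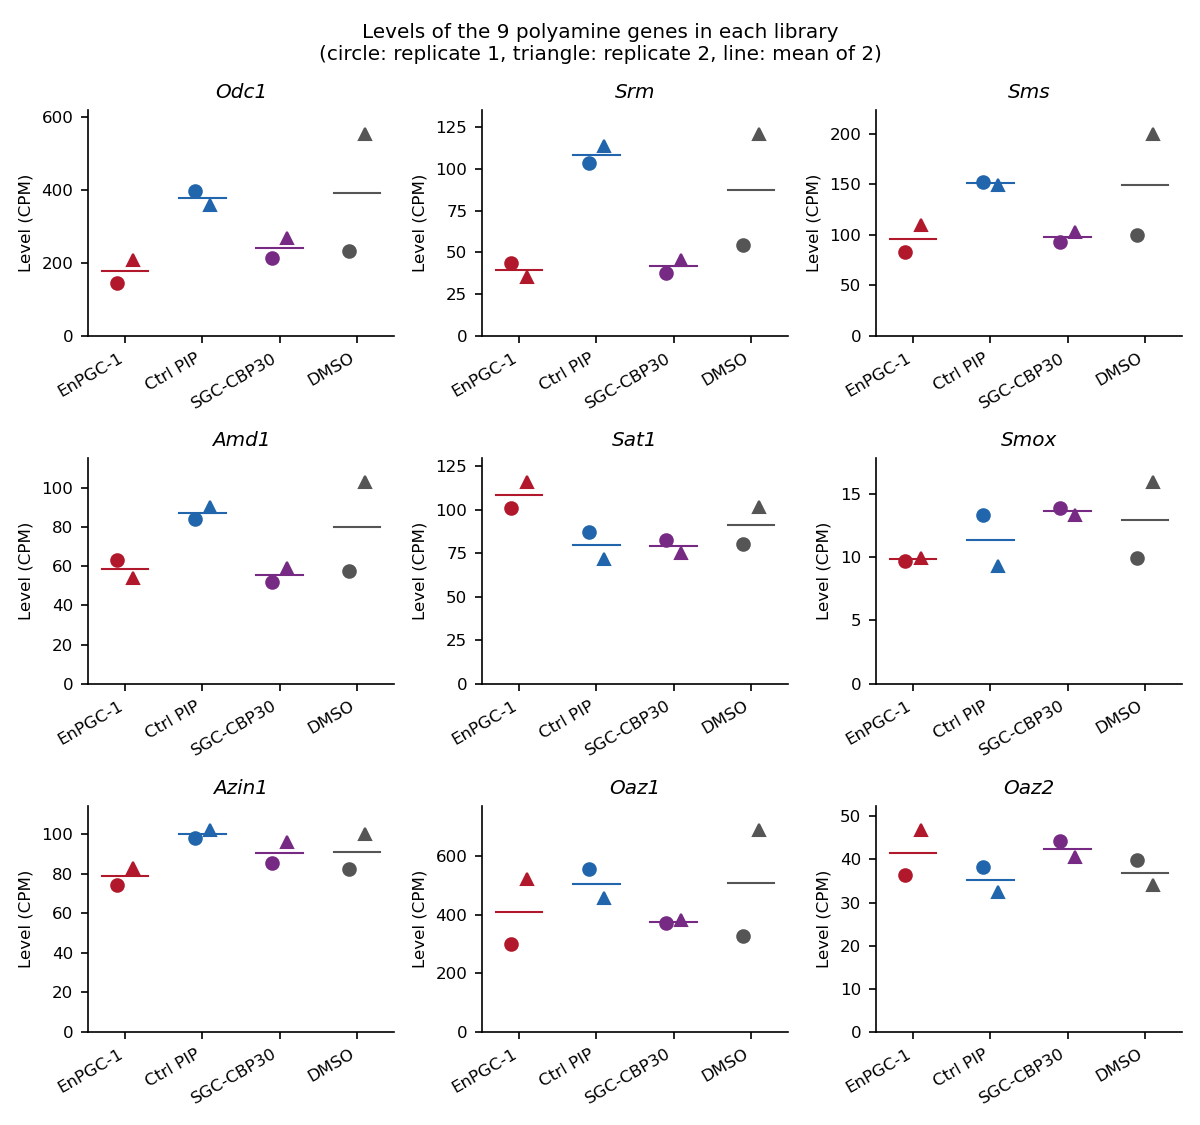
Level in CPM (vertical axes from 0, a scale for each gene) of the 9 polyamine genes in each library, with EnPGC-1, Ctrl PIP, SGC-CBP30 and DMSO from left to right. Circles are replicate 1, triangles replicate 2 and lines the mean of 2; Srm in the EnPGC-1 and SGC-CBP30 libraries lies between 35.5 and 45.6 CPM, below the 54.6 to 121 CPM of the other 4 libraries.

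The plot of levels by library shows the wide DMSO pair, whose second library was the highest of all 8 for Odc1, Srm, Sms, Amd1, Smox and Oaz1. It also shows the closeness of the Ctrl PIP pair for Odc1, Srm, Sms, Amd1 and Azin1.

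Sat1 encodes spermidine/spermine acetyltransferase, which acetylates polyamines for export or oxidation. It had 101 and 116 CPM in the EnPGC-1 libraries, 87.3 and 71.9 with Ctrl PIP, 82.4 and 75.4 with SGC-CBP30, and 80.2 and 102 with DMSO. The EnPGC-1 libraries were above the Ctrl PIP and SGC-CBP30 libraries, while the higher DMSO library lay between the 2 EnPGC-1 libraries.

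Smox, at chr2:131491858-131525183, encodes spermine oxidase, which turns spermine back into spermidine. It had 9.71 and 9.93 CPM in the EnPGC-1 libraries, 13.3 and 9.29 with Ctrl PIP, 13.9 and 13.4 with SGC-CBP30, and 9.89 and 15.9 with DMSO. The EnPGC-1 pair lay below the SGC-CBP30 pair and overlapped the others.

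Oaz1 (chr10:80826656-80829290) and Oaz2 (chr9:65676548-65690300) encode antizymes, proteins made through a ribosomal frameshift that polyamines favour, which bind ornithine decarboxylase and send it to the proteasome. Oaz1 had 299 and 521 CPM in the EnPGC-1 libraries, 555 and 459 with Ctrl PIP, 372 and 380.4 with SGC-CBP30, and 328 and 689 with DMSO. The EnPGC-1 and DMSO pairs each spanned both SGC-CBP30 libraries. Oaz2 had 36.3 and 46.8 CPM in the EnPGC-1 libraries, 38.2 and 32.4 with Ctrl PIP, 44.3 and 40.6 with SGC-CBP30, and 39.9 and 34.0 with DMSO. The SGC-CBP30 libraries were above those of Ctrl PIP and DMSO, with the EnPGC-1 pair on both sides of them. Processed copies carry part of these sequences. Oaz1-ps had 14.0 to 16.6 counts for every 100 of Oaz1 and shares 92.1% of its 50-base stretches with it. Oaz2-ps had 9.55 to 12.8 for every 100 of Oaz2 and shares 37.7%. The counts of both genes are therefore uncertain, to an extent that these values do not measure.

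Azin1, at chr15:38487430-38519294, encodes the antizyme inhibitor, which frees ornithine decarboxylase by binding antizymes. It had 74.5 and 82.9 CPM in the EnPGC-1 libraries, 98.3 and 102 with Ctrl PIP, 85.5 and 95.9 with SGC-CBP30, and 82.5 and 100.1 with DMSO. The EnPGC-1 pair was below the Ctrl PIP and SGC-CBP30 pairs, and its higher library just above the lower DMSO library.

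Levels of different genes were compared per length, as CPM per kilobase of the longest GENCODE M21 transcript, averaged over the 8 libraries. Oaz1 had the highest level at 178, followed by Odc1 at 134, Sat1 at 66.2, Srm at 51.8, Sms at 33.3, Amd1 at 22.0, Oaz2 at 21.2, Azin1 at 18.5 and Smox at 5.18. Within the DMSO pair the order was the same, and Odc1 and Sat1, and Azin1 and Smox, were the only neighbours whose means differed by more than the larger of their standard deviations. With the median transcript of each gene as its length, Azin1, at 121 CPM per kilobase, came next after Oaz1 and Odc1, so that its place depends on which transcript the cells make.

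**Figure D2:**
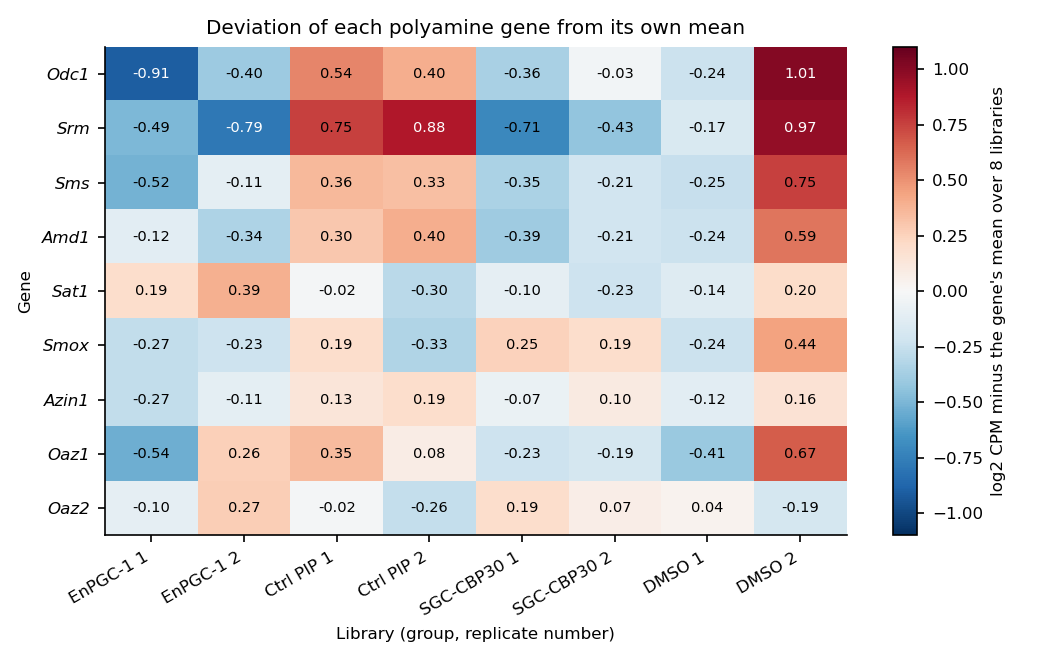
Deviation of log2 CPM from the gene's own mean over the 8 libraries (colour and number) for the 9 polyamine genes (rows) in each library (columns). Odc1, Srm, Sms and Amd1 were below their mean in all EnPGC-1 and SGC-CBP30 libraries and in the first DMSO library, and above it in both Ctrl PIP libraries and the second DMSO library, where Odc1 stood at 1.01.

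The heat map of deviations sets the genes on 1 scale. The standard deviation of log2 CPM over the 8 libraries was 0.745 for Srm and 0.616 for Odc1. Odc1, Srm, Sms and Amd1 shared their signs in all 8 libraries, which describes these libraries and is not tested. The share of all genes with these signs was not counted, so the pattern is not shown to be particular to these genes. Oaz1 departed from it only in the second EnPGC-1 library (0.26), and Azin1 only in the second SGC-CBP30 library (0.10). Sat1, Smox and Oaz2 had other profiles.

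EnPGC-1 set against its vehicle asks what the compound did. Odc1 differed by -1.15 on the log2 scale (SE 0.42, 95% interval -2.17 to -0.14) and Srm by -1.14 (SE 0.37, -2.04 to -0.25), and these 2 of the 9 genes were lower without overlap, as were 9.24% of all genes tested. No polyamine gene was higher without overlap, against 9.83% of all genes. The adjusted p from edgeR was 0.9979 for both, with unadjusted p-values of 0.03152 for Odc1 and 0.01971 for Srm. edgeR's adjusted test called 0 genes, 438 genes (2.61%) had an unadjusted p under 0.05, among them 2 polyamine genes, and DESeq2 called 21 genes (0.133%), none of them a polyamine gene. Sms stood at -0.64 (SE 0.34), Amd1 at -0.46 (SE 0.29), Oaz1 at -0.31 (SE 0.42) and Sat1 at 0.25 (SE 0.21), all with intervals across 0. The median over the 9 genes was -0.39, beside 0.00 over all genes. In bulk samples, fewer cells of a type and less RNA per cell cannot be told apart.

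The size of these differences rested on the libraries used. Without the first libraries of both EnPGC-1 and DMSO, Srm stood at -1.76, Odc1 at -1.41, Amd1 at -0.93 and Sms at -0.86. Without the second libraries, Srm stood at -0.31, Odc1 at -0.67, Amd1 at 0.13 and Sms at -0.26. Such fits take their spread from the Ctrl PIP and SGC-CBP30 pairs and assume that the lone libraries vary like them. An offset for transcript length and GC content in the fit of 8 libraries gave -0.79 for Srm (95% interval -1.53 to -0.05), an interval of -1.73 to -0.27 for Odc1, and 0.47 for Sat1 (-0.08 to 1.02).

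Set against the control compound Ctrl PIP, EnPGC-1 showed 5 of 9 genes lower without overlap (Odc1, Srm, Sms, Amd1 and Azin1), against 21.7% of all genes tested, and 1 higher (Sat1), against 20.7%. The lower count exceeds that share of 9 genes, with no test made of the excess. Odc1 differed by -1.10 (SE 0.42, 95% interval -2.12 to -0.09) and Srm by -1.45 (SE 0.38, -2.35 to -0.55). Sms stood at -0.65 (SE 0.34), Amd1 at -0.57 (SE 0.29), Azin1 at -0.35 (SE 0.19) and Sat1 at 0.45 (SE 0.21, -0.05 to 0.95). The smallest adjusted p among the 9 genes was 0.8118 in edgeR. edgeR's adjusted test called 0 genes, 750 genes (4.48%) had an unadjusted p under 0.05, among them the polyamine genes Srm and Odc1, and DESeq2 called 42 genes (0.256%) and no polyamine gene. With the length and GC offset, Sat1 stood at 0.70 (0.15 to 1.25) and Srm at -1.18 (-1.92 to -0.43). Without the first libraries of EnPGC-1 and DMSO, Srm stood at -1.61, Odc1 at -0.87, Amd1 at -0.69, Sms at -0.46 and Oaz1 at 0.04. Without the second libraries, they stood at -1.31, -1.38, -0.47, -0.87 and -0.76 in that order.

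SGC-CBP30 set against DMSO asks what inhibiting the CBP and p300 bromodomains did. Srm differed by -1.08 (SE 0.37, 95% interval -1.97 to -0.18) and was the 1 gene of 9 that was lower without overlap, against 14.5% of all genes. Oaz2, at 0.20 (SE 0.21), was the 1 gene higher without overlap, against 16.2%. Neither count stands out from those shares. Odc1 stood at -0.71 (SE 0.42), Sms at -0.61, Amd1 at -0.53 and Sat1 at -0.21, with intervals across 0. Among the 9 genes the adjusted p from edgeR was 0.943 or more. edgeR's adjusted test called 0 genes, 735 genes (4.39%) had an unadjusted p under 0.05, with Srm the single polyamine gene among them, and DESeq2 called 69 genes (0.412%) and no polyamine gene. The length and GC offset moved Srm to -0.72 (-1.45 to 0.02). Without the first libraries of EnPGC-1 and DMSO, Odc1 stood at -1.20, Srm at -1.54, Sms at -1.03, Amd1 at -0.89 and Oaz1 at -0.87. Without the second libraries, they stood at 0.05, -0.39, -0.02, -0.05 and 0.20 in that order.

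**Figure D3:**
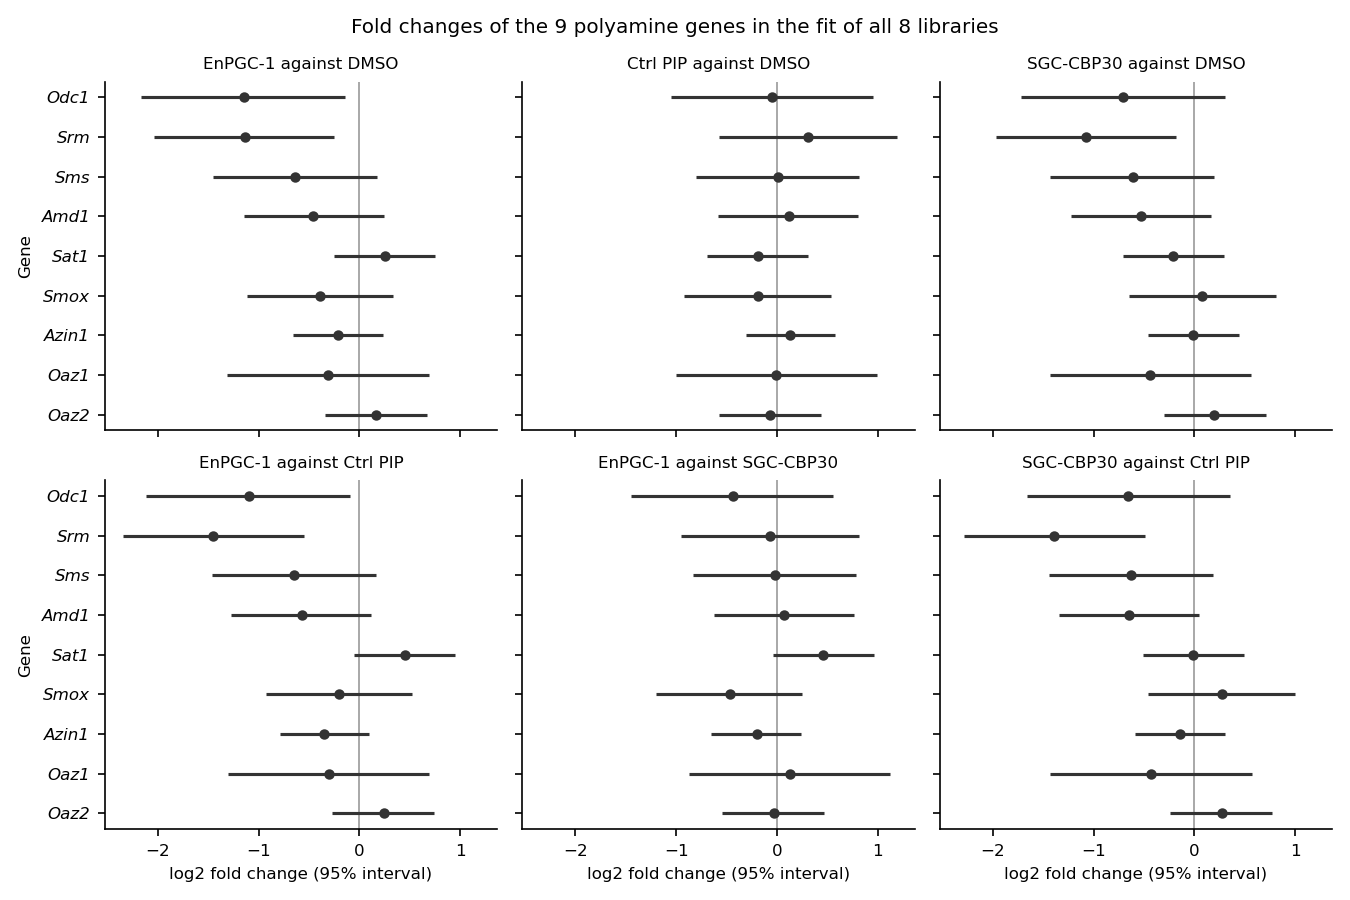
Log2 fold change (horizontal axis) with its 95% interval for the 9 polyamine genes (rows) in the 6 comparisons (panels), from edgeR's fit of all 8 libraries. The intervals of Srm exclude 0 in the panels that set EnPGC-1 or SGC-CBP30 against DMSO or Ctrl PIP, before any adjustment for the 16750 genes tested.

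The replicates of SGC-CBP30 and Ctrl PIP were closer to each other than those of EnPGC-1 and DMSO, by the coefficients of variation above. In the fit of 8 libraries Srm differed by -1.39 (SE 0.38, 95% interval -2.29 to -0.49), Odc1 by -0.66 (SE 0.42), Amd1 by -0.65 (SE 0.29), Sms by -0.63 (SE 0.34), Oaz1 by -0.43 (SE 0.42) and Sat1 by -0.01 (SE 0.21). The 6 genes Odc1, Srm, Sms, Amd1, Azin1 and Oaz1 were lower without overlap, against 30.2% of all genes, and 2, Smox and Oaz2, were higher, against 31.5%. edgeR's adjusted test called 0 genes, 668 genes (3.99%) had an unadjusted p under 0.05, with Srm the single polyamine gene, and DESeq2 called 49 genes (0.317%) and no polyamine gene.

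In the fit of SGC-CBP30 against Ctrl PIP on the 4 libraries of these groups alone, Srm, Sms, Amd1 and Odc1 fell with SGC-CBP30. These 4 of 9 polyamine genes compare with 8.51% of 15660 genes called lower and 7.27% called higher, 2470 genes in all. The differences were -1.39 for Srm (95% interval -1.70 to -1.08), -0.63 for Sms (-0.89 to -0.38), -0.65 for Amd1 (-0.92 to -0.38) and -0.66 for Odc1 (SE 0.15). Their adjusted p-values from edgeR were 0.008927, 0.01649, 0.01779 and 0.02676 in that order. None of Sat1, Smox, Azin1, Oaz1 and Oaz2 passed.

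For SGC-CBP30 against Ctrl PIP, a length and GC offset in the same 4 libraries, chosen after the values were seen because these groups differ in their length trend, left 1593 genes, 5.93% lower and 4.25% higher. Srm, at -1.11, Sms, at -0.63, and Amd1, at -0.60, remained lower, with adjusted p of 0.01526, 0.01526 and 0.01987 in edgeR. Odc1, at -0.49, no longer passed, with an adjusted p of 0.06017, and Oaz2, at 0.48, was higher with an adjusted p of 0.03656. Fits on the 4 libraries of each of the other 5 comparisons called 0.0% of genes, with and without the offset.

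**Figure D4:**
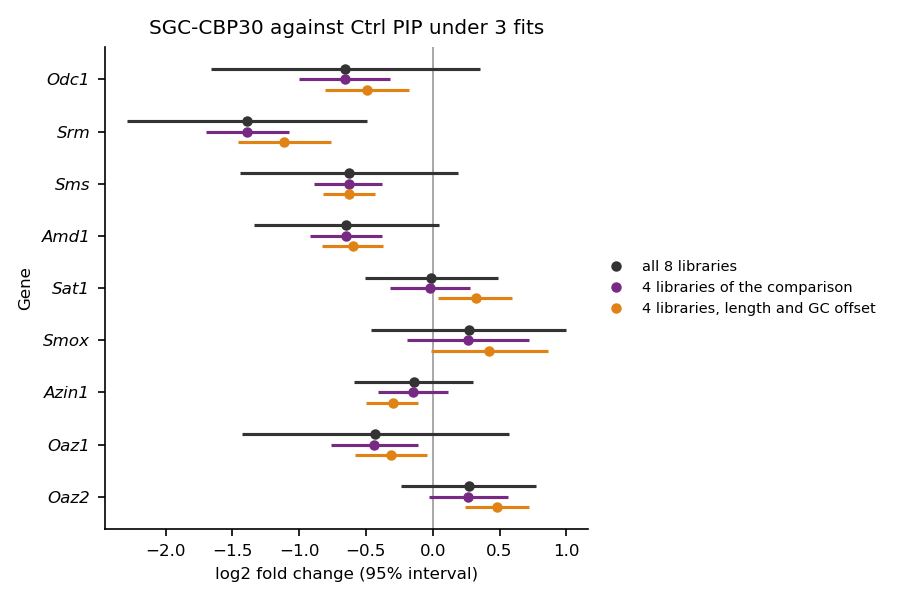
Log2 fold change of SGC-CBP30 against Ctrl PIP (horizontal axis) with 95% intervals for the 9 polyamine genes (rows) under 3 edgeR fits, namely all 8 libraries (black), the 4 libraries of the comparison (purple) and those 4 with a length and GC offset (orange). The estimates for Srm lie between -1.39 and -1.11, while the interval narrows in the fits of 4 libraries.

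The plot of 3 fits shows that the interval of Srm excluded 0 in each. The estimate of Sat1 was -0.01 in the fit of 8 libraries and 0.32 with the offset, so no direction is given for it here.

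EnPGC-1 set against SGC-CBP30 compares 2 compounds whose doses are not given. Srm differed by -0.07 (95% interval -0.95 to 0.82) and Odc1 by -0.44 (-1.45 to 0.56), intervals that allow differences in either direction. Odc1, Smox and Azin1 were lower without overlap, 3 of 9 against 14.7% of all genes, and Sat1 was higher, 1 of 9 against 13.2%. Sat1 stood at 0.46 (-0.04 to 0.96) and Smox at -0.47 (-1.20 to 0.25). The adjusted p of every polyamine gene was 1.0 in edgeR. The adjusted test called 0 genes, 340 genes (2.03%) had an unadjusted p under 0.05 with no polyamine gene among them, and DESeq2 called 9 genes (0.0537%), none of the 9 polyamine genes.

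Ctrl PIP set against DMSO had 0 of 9 genes that did not overlap, against 7.83% lower and 8.34% higher among all genes. The 9 log2 differences ran from -0.19 to 0.31, with Odc1 at -0.05 (95% interval -1.05 to 0.95) and Srm at 0.31 (-0.57 to 1.19). These intervals do not show that the groups were alike. edgeR's adjusted test called 0 genes, 100 genes (0.597%) had an unadjusted p under 0.05 and DESeq2 called 1 gene (0.00597%), with no polyamine gene in either count. Without the second libraries of EnPGC-1 and DMSO, Srm stood at 1.00, Odc1 at 0.71, Sms at 0.61 and Amd1 at 0.60. Without the first libraries, they stood at -0.15, -0.54, -0.40 and -0.24 in that order.

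A test of any difference among the 4 groups gave Srm an unadjusted p of 0.01351 and an adjusted p of 0.9996 in edgeR, where 413 genes (2.47%) had an unadjusted p under 0.05. Odc1 had an unadjusted p of 0.08995 in edgeR. DESeq2's likelihood ratio test called 107 genes (0.665%), and Srm was the single polyamine gene among them, with an adjusted p of 0.03587. The comparisons share libraries, so their values for a gene are not independent of each other.

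Ratios of counts within a library do not depend on its scaling, and the pairs given here were chosen after the values were seen. Srm and Sat1 have longest transcripts of 1338 and 1352 bases, with GC contents of 59.8% and 43.8%. The log2 ratio of Srm to Sat1 was -1.21 and -1.71 in the EnPGC-1 libraries, 0.25 and 0.66 with Ctrl PIP, -1.14 and -0.73 with SGC-CBP30, and -0.55 and 0.24 with DMSO. The 4 pairs did not overlap, with EnPGC-1 lowest, then SGC-CBP30, DMSO and Ctrl PIP, although the nearest libraries of neighbouring pairs differed by little.

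The ratio of Odc1, the enzyme, to Oaz1, its antizyme, was -1.05 and -1.33 in the EnPGC-1 libraries, -0.48 and -0.35 with Ctrl PIP, -0.81 and -0.51 with SGC-CBP30, and -0.50 and -0.32 with DMSO on the log2 scale. EnPGC-1 was the lowest pair, and the SGC-CBP30 pair lay between it and the other 4 libraries. The ratio of Odc1 to Sat1 was 0.52 and 0.84 in the EnPGC-1 libraries, 2.18 and 2.32 with Ctrl PIP, 1.37 and 1.83 with SGC-CBP30, and 1.53 and 2.44 with DMSO. Here too both EnPGC-1 libraries were below all others, and those of SGC-CBP30 overlapped DMSO. In 3 other ratios computed, Odc1 to Azin1, Odc1 to Smox and Srm to Sms, the EnPGC-1 pair overlapped the SGC-CBP30 pair. In each of these it was below the Ctrl PIP and DMSO pairs.

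**Figure D5:**
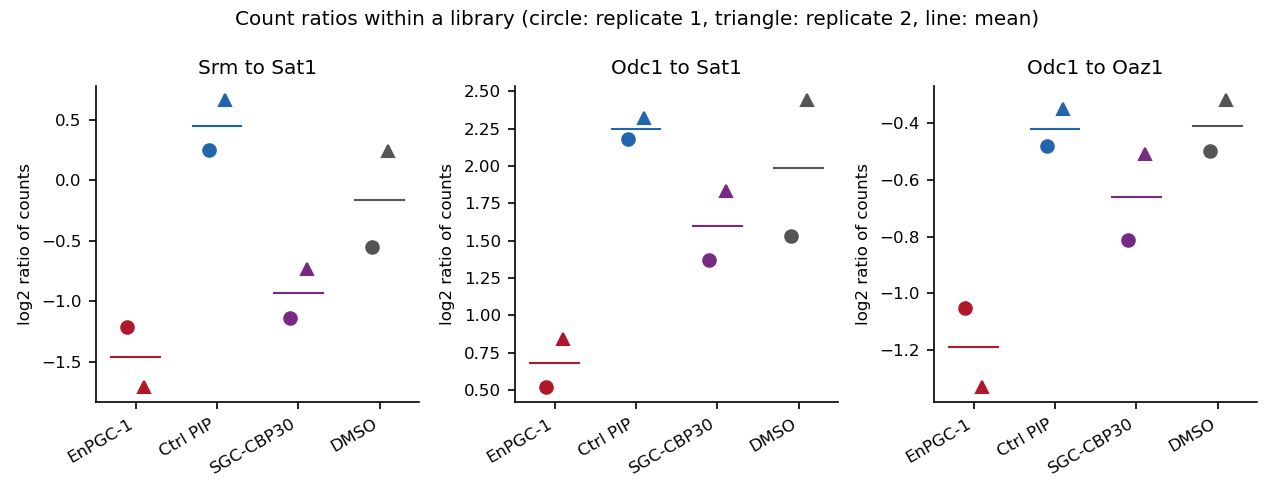
Log2 ratio of counts within a library (vertical axes, not starting at 0) for Srm to Sat1, Odc1 to Sat1 and Odc1 to Oaz1, by group. Circles are replicate 1, triangles replicate 2 and lines the mean of 2; the EnPGC-1 libraries are the lowest 2 of 8 in each of these 3 of the 6 ratios computed.

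Genes around the pathway were read from lists, each tested in the same fit, where 0 genes of every list passed edgeR's adjusted threshold. DESeq2 called Myc lower in SGC-CBP30 against DMSO and against Ctrl PIP and no other gene of these lists in a comparison of 2 groups. The fit of SGC-CBP30 against Ctrl PIP on 4 libraries called lower Amd2, Dohh, Eif5a, Mat2a, Mtap, Mri1, Enoph1, Adi1, Slc7a1 and Myc, and higher Mxd1, Mxd4 and Mlxip. In that fit 8.51% of all genes were called lower and 7.27% higher. With the length and GC offset Dohh, Enoph1, Adi1 and Mlxip no longer passed. The shares of all genes were then 5.93% lower and 4.25% higher. Of 10 other polyamine genes, 5 passed the filter on low counts, and Sat2, Azin2, Oaz3, Agmat and Slc18b1 did not. The 3 with the smallest p of any difference were Atp13a2, a polyamine exporter of lysosomes (unadjusted edgeR p 0.1154), Amd2 (0.1423) and Paox, an oxidase of acetylated polyamines (0.4377).

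In the hypusine list, of which all 4 genes were tested, Eif5a, the factor that carries the spermidine-derived residue, had 492 and 660.2 CPM in the EnPGC-1 libraries, 1253 and 1270.0 with Ctrl PIP, 580 and 653 with SGC-CBP30, and 720 and 1681 with DMSO. The EnPGC-1 and SGC-CBP30 libraries were below those of Ctrl PIP and DMSO without overlap, the pattern that Srm showed. The edgeR p of any difference for Eif5a was 0.05377 before adjustment and 0.9996 after it. For Dhps and Dohh, the enzymes that build hypusine, it was 0.2695 and 0.3605 before adjustment.

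Of 9 genes of methionine salvage and S-adenosylmethionine supply, 8 were tested. Mtap, which recycles the methylthioadenosine left over by spermidine and spermine synthesis, had 42.4 and 32.8 CPM in the EnPGC-1 libraries, 60.4 and 62.5 with Ctrl PIP, 34.0 and 37.4 with SGC-CBP30, and 42.2 and 68.8 with DMSO. Its SGC-CBP30 libraries and the second EnPGC-1 library were below all 4 libraries of Ctrl PIP and DMSO. The unadjusted edgeR p of any difference was 0.0584 for Mtap, 0.06635 for Enoph1, an enzyme of the same salvage route, and 0.09281 for Mat2a, which makes S-adenosylmethionine. Of these 8 genes, 6 were lower with EnPGC-1 than with Ctrl PIP without overlap and 7 were lower with SGC-CBP30 than with Ctrl PIP, beside the 21.7% and 30.2% of all genes. Of 11 genes of arginine and ornithine supply 7 were tested, and the arginase genes Arg1 and Arg2 did not pass the filter. The arginine carrier gene Slc7a1 had 73.6 and 41.9 CPM in the EnPGC-1 libraries, 90.9 and 94.5 with Ctrl PIP, 63.9 and 72.7 with SGC-CBP30, and 97.9 and 88.0 with DMSO, with EnPGC-1 and SGC-CBP30 below the other groups. The unadjusted edgeR p of any difference was 0.1179 for Slc7a1, 0.1469 for the proline synthesis gene Pycr1 and 0.2611 for the amino acid exchanger gene Slc7a6.

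Myc, the gene of the factor that induces Odc1 in activated T cells, had 97.8 and 85.9 CPM in the EnPGC-1 libraries, 153 and 124 with Ctrl PIP, 71.1 and 62.9 with SGC-CBP30, and 147 and 208 with DMSO. Its edgeR p of any difference was 0.003264 before adjustment and 0.9996 after it. For Myc, as for Srm, the EnPGC-1 and SGC-CBP30 libraries were below those of Ctrl PIP and DMSO without overlap. The SGC-CBP30 libraries were the lowest for Myc and the EnPGC-1 libraries the lowest for Odc1. The part of Myc in the polyamine values was not tested. Of 11 genes of the MYC network 10 were tested, and the next 2 by this p were Mxd1 (0.1347 in edgeR, unadjusted) and Mxd4 (0.3168), which encode MAX partners that oppose MYC.

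By root mean square difference of centred log2 CPM over the 8 libraries, among 9397 genes, the profiles nearest to Srm were those of Ifrd2 (0.062), Shmt1 (0.117), Mettl1 (0.119), Grwd1 (0.133) and Bcat1 (0.158). Those nearest to Odc1 were Fam185a (0.115), Shq1 (0.119), Rcc1 (0.125), Alyref (0.126) and Bri3bp (0.131). The nearest polyamine gene to Odc1 was Sms, at rank 139, and the nearest to Srm was Odc1, at rank 143.

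Markers of other cells moved with some groups, and their part in the polyamine values was not tested. Of 6 B cell markers, all detected, the summed level was 43.6 to 51.5 CPM with EnPGC-1, 22.2 to 36.4 with Ctrl PIP, 18.5 to 22.7 with SGC-CBP30 and 37.9 to 47.8 with DMSO. The 4 NK cell markers summed to 40.1 to 49.1 CPM with EnPGC-1, 70.8 to 71.5 with Ctrl PIP, 41.9 to 45.4 with SGC-CBP30 and 64.5 to 73.7 with DMSO, the same separation of groups as Srm. CD8+ T cells also express Eomes, which is in the NK list, and Ncr1 and Klra8 of that list were each at 0 in 5 libraries. The fit of SGC-CBP30 against Ctrl PIP on 4 libraries called 3 of the 4 NK markers lower (Klrb1c, Klra8 and Eomes), against 8.51% of all genes. With the length and GC offset Eomes alone passed, against 5.93% of all genes. That fit called none of the CD8, CD4, B cell and myeloid markers. The 6 myeloid markers summed to at most 10.2 CPM in any library, and the 4 globin genes of red cells to 11.3 and 16.6 CPM in the EnPGC-1 libraries, 9.16 and 3.72 with Ctrl PIP, 3.39 and 1.64 with SGC-CBP30, and 4.80 and 12.0 with DMSO. The SGC-CBP30 libraries were thus the lowest for these genes. The 3 CD4 T cell markers summed to 25.7 and 8.71 CPM in the EnPGC-1 libraries, 9.18 and 10.8 with Ctrl PIP, 12.3 and 11.4 with SGC-CBP30, and 25.5 and 4.997 with DMSO, so that the first EnPGC-1 and DMSO libraries were the highest. Csf3r was at 0 in 6 libraries and Cd14 in 5.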

How the data were processed

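The authors deposited whole-number counts per gene, under Entrez IDs, for 8 libraries made with a strand-marking poly(A) kit, per the labels' protocols, and regularized log2 values of 16442 genes, deposited by the authors with header names shifted by 1 column. HISAT2, StringTie, DESeq2 and mm10 are named, without roles, per the submitters' processing notes, with the counter and strand setting not given in the sources used here. Counts were fitted with edgeR's quasi-likelihood test (edgeR 4.0.16, R 4.3.3, TMM, filterByExpr, robust, 4 group means, no covariates, 4 residual degrees of freedom, two-sided, Benjamini-Hochberg over 16750 genes at 0.05). Levels used TMM-scaled totals, and log2 CPM a prior count of 2. Lengths came from GENCODE M21, known for 92.1% of the genes tested. Names and positions came from RefSeq, matched for 99.8% of IDs. Alternatives used DESeq2 1.42.0, limma 3.58.1 on the log2 values and mgcv 1.9.3 for the offset. The fit was tested on simulated data with a spread near that of SGC-CBP30 and Ctrl PIP and no length trends. That run does not show how the fit performs at the wider spread of EnPGC-1 and DMSO. The members, lists and tests were chosen with earlier results of these data known. All 9 members were named. Each neighbouring list gave at most 3 names by smallest p of any difference, and Odc1 and Srm their 5 nearest profiles. Further genes of these lists were named where another fit called them or where they did not pass the filter. A further marker list is not reported in full here.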

Additional observations from a re-analysis of the deposited data

How the results depend on the processing

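Across 30 results and 300 values with a library or pair left out, 262 kept direction and side of the threshold, 22 passed it and 16 reversed. Of 300 values under other settings these numbers were 285, 7 and 8. DESeq2 called 21 genes for EnPGC-1 against DMSO, 1 for Ctrl PIP against DMSO, 69 for SGC-CBP30 against DMSO, 42 for EnPGC-1 against Ctrl PIP, 9 for EnPGC-1 against SGC-CBP30, 49 for SGC-CBP30 against Ctrl PIP and 107 for any difference among the 4 groups, with 1 polyamine gene (Srm) in the last. For SGC-CBP30 against Ctrl PIP, its 4 libraries alone gave 2470 genes and 4 polyamine genes, and 1593 and 4 with the length and GC offset. Odc1 in Ctrl PIP against DMSO became 0.03 with library totals, 0.03 with limma on rlog values, 0.06 with the replicate block and 0.05 with Ctrl PIP numbers exchanged. Sat1 became 0.09 in SGC-CBP30 against DMSO and 0.32 in SGC-CBP30 against Ctrl PIP with the offset, in the fits of 8 and of 4 libraries. The causes were not tested.

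Leave-out fits gave 0 to 1095 genes and 0 to 4 polyamine genes for EnPGC-1 against DMSO, 0 to 2365 and 0 to 4 for Ctrl PIP against DMSO, 0 to 6314 and 0 to 5 for SGC-CBP30 against DMSO, 0 to 5183 and 0 to 5 for EnPGC-1 against Ctrl PIP, 0 to 883 genes for EnPGC-1 against SGC-CBP30, 0 to 2256 and 0 to 4 for SGC-CBP30 against Ctrl PIP, and 0 to 4379 and 0 to 5 for any difference among the 4 groups. Counts above 0 came only from leaving out 1 library of both EnPGC-1 and DMSO; leaving out any single library gave 0. Only a part of the gene differences was followed over all leave-out fits, and some of these had ranges over those fits alone that crossed 0. In EnPGC-1 against DMSO these were -0.93 to 0.13 for Amd1 and -0.77 to 0.32 for Oaz1. In Ctrl PIP against DMSO they were -0.54 to 0.71 for Odc1 and -0.15 to 1.00 for Srm. The others were -1.20 to 0.05 for Odc1 in SGC-CBP30 against DMSO and -0.23 to 0.09 for Srm in EnPGC-1 against SGC-CBP30. For Sat1 in SGC-CBP30 against Ctrl PIP the range was -0.15 to 0.12. Differences outside that part crossed 0 as well. Among them, in Ctrl PIP against DMSO, were Sms (-0.40 to 0.61) and Amd1 (-0.24 to 0.60). Oaz1 did so in SGC-CBP30 against DMSO (-0.87 to 0.20) and in EnPGC-1 against Ctrl PIP (-0.76 to 0.04). With the other settings included, Sat1 ran from -0.15 to 0.32 in SGC-CBP30 against Ctrl PIP. In SGC-CBP30 against DMSO it then ran from -0.37 to 0.09.

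The labels do not say that replicate numbers pair the libraries. Same-numbered deviations correlated at 0.666 for EnPGC-1 and DMSO, 0.227 for SGC-CBP30 and DMSO and 0.231 for EnPGC-1 and SGC-CBP30, but at -0.252 for Ctrl PIP and DMSO, -0.226 for EnPGC-1 and Ctrl PIP and -0.039 for SGC-CBP30 and Ctrl PIP, and the block called 0 genes in every comparison. With 2 libraries a group, the wide DMSO pair limits what the 3 comparisons with it can show for Odc1, Srm, Sms, Amd1 and Oaz1.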
